A study of Mus musculus with 28 samples.

Results

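The myosin heavy chain family was examined in tibialis anterior muscle from mouse models of centronuclear myopathy given tamoxifen or placebo. The family was taken as 10 genes given by symbol, Myh1, Myh2, Myh3, Myh4, Myh6, Myh7, Myh7b, Myh8, Myh13 and Myh14, and all 10 were present among the 55359 gene identifiers shared by the 2 count tables. Poly(A) RNA was sequenced from 28 mice in 7 groups of 4, which the study's methods describe as C57BL/6N mice of 8 weeks. The Dnm2 cohort held WT and Dnm2 S619L/+ mice, a heterozygous knock-in of a point mutation in the membrane fission GTPase dynamin 2, and each genotype was given placebo or tamoxifen in the diet. The Bin1 cohort held WT mice on placebo and Bin1 mck-/- mice, in which the membrane-curving protein amphiphysin 2 is deleted in muscle by a Cre recombinase driven from the muscle creatine kinase promoter, on placebo or on tamoxifen. No tamoxifen-treated WT mice were in the Bin1 cohort, so an effect of tamoxifen there was measured in diseased muscle alone. Below, a group named without a treatment received placebo.

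Myosin heavy chains are the motors of the thick filament: the head hydrolyses ATP and pulls on actin, and the long tail packs with others into the filament. Adult limb fibers are typed by the heavy chain they make, Myh4 in fast glycolytic type IIb fibers, Myh1 in IIx, Myh2 in fast oxidative IIa and Myh7 in slow type I fibers, while Myh3 (embryonic) and Myh8 (perinatal) are made in developing and regenerating fibers. Myh6 is the alpha chain of heart muscle, Myh13 the chain of extraocular muscle, Myh7b an ancient slow-type chain, and Myh14 a nonmuscle chain that works outside the sarcomere. The mouse tibialis anterior is a fast muscle composed mainly of type IIb and IIx fibers.

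Each library held between 15586333 and 109710886 reads counted in genes, with a median of 28832003 in the Dnm2 cohort and 30657895 in the Bin1 cohort. Levels are given as normalized CPM, read counts divided by the library size after its scaling by the trimmed mean of M-values (TMM). TMM factors were 0.812 to 0.9 in WT mice of the Dnm2 cohort and 0.896 to 1.16 in the other groups, and without this scaling the median log2 fold change of all genes moved up by 0.261 in Dnm2 S619L/+ against WT, 0.274 for tamoxifen in WT and 0.343 in treated Dnm2 S619L/+ against untreated WT, with 91.1%, 92% and 93.2% of the called genes higher in place of 55.2%, 57.1% and 54.6%. Reads of the deleted gene Bin1 fell from 521 to 556 normalized CPM in WT mice to 51.6 to 62.1 in Bin1 mck-/- mice and 36.1 to 49.5 in treated ones, whereas the Dnm2 point mutation cannot be seen in gene counts. Fiber markers (Acta1, Ckm, Des, Mb, Ttn and Neb) summed to between 49262 and 96885 normalized CPM in every mouse, so the labelled tissue carried its defining markers. Xist, the RNA of the inactive X chromosome, was above 10 CPM in all 12 mice of the Bin1 cohort but in only 2 of 4 WT, 2 of 4 treated WT, 2 of 4 Dnm2 S619L/+ and 4 of 4 treated Dnm2 S619L/+ mice, and the labels used here do not give sex. Fewer cells of a type and less RNA per cell cannot be told apart in these bulk samples. Several members share sequence: of all 50-base words in the longest transcript, 26.9% of those of Myh2, 26.7% of Myh1, 18.9% of Myh4, 21.4% of Myh8, 22.6% of Myh6 and 22.2% of Myh7 also occur in another member, so reads from these stretches may be lost or assigned to the wrong gene.

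Of the members, 6 of 10 lie in a single array of 293 kb on chromosome 11, in the order Myh3, Myh2, Myh1, Myh4, Myh8 and Myh13, and Myh6 and Myh7 are neighbours within 53 kb on chromosome 14. The 250 bases before the annotated start of 4 of these genes are shown because they hold the same run of 14 bases, although the genes differed in how they moved below. All 10 members matched a RefSeq promoter by symbol, and the sequences are from RefSeq on build GRCm38.p6, plus strand, 5′ to 3′. Capitals mark the shared word TTCTAATTATATCC, a match to the binding motif of the muscle factor MEF2 (TTATTTATAG) and the TATA box letters TATAAA.
Myh2 promoter, chr11:67170777-67171026: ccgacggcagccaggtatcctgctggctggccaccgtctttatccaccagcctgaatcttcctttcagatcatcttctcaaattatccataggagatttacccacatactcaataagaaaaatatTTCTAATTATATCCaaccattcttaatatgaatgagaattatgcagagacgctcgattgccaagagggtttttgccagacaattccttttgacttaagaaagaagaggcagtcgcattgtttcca
Myh1 promoter, chr11:67199852-67200101: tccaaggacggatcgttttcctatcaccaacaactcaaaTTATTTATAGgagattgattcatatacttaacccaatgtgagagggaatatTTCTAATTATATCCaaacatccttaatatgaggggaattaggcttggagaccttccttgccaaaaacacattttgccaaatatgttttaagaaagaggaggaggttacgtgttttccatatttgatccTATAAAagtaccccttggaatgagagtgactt
Myh4 promoter, chr11:67237562-67237811: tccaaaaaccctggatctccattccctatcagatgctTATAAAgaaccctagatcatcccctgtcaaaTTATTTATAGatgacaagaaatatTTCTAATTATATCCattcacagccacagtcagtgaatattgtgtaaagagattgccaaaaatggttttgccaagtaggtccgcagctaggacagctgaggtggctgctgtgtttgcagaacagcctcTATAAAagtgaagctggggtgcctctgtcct
Myh8 promoter, chr11:67276874-67277123: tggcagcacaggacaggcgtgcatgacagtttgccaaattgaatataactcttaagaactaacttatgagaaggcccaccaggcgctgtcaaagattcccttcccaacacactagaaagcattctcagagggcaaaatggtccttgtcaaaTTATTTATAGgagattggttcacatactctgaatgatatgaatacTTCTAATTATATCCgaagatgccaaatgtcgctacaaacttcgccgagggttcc
The shared word was found, on either strand, in 4 of 32851 promoter windows (0.0122%), which are these 4, and began 125 bases before the start of Myh2, 160 before Myh1, 158 before Myh4 and 54 before Myh8. A MEF2 match was in 2.92% of all windows and in those of Myh1, Myh4 and Myh8. The letters TATAAA, searched on both strands, were in 12.4% of windows and in those of Myh1, Myh3, Myh4 and Myh8. In Myh8 they stood only on the minus strand, inside its MEF2 match, so no TATA box letters are marked there. A match is a run of letters and not a measured binding site.

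In WT muscle of the Dnm2 cohort the family was dominated by the fast adult chains. Per kilobase of transcript, Myh4 stood at 6100 ± 1304 normalized CPM per kilobase (SD, n = 4), followed by Myh1 at 2369 ± 191, Myh2 at 326 ± 119 and Myh14 at 6.74 ± 0.53, and none of these neighbours overlapped. The other 6 members lay between means of 0.56 for Myh7 and 2.34 for Myh13, and each overlapped the next. The 10 genes together took between 2.80% and 5.6% of all gene counts in a mouse. The order at the top was not fixed: in treated Dnm2 S619L/+ and treated Bin1 mck-/- muscle the levels of Myh4 and Myh1 overlapped, and in Bin1 mck-/- muscle Myh1 had the higher mean and overlapped Myh4.

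Myh4, the IIb chain, was lower in Dnm2 S619L/+ than in WT muscle. Its normalized CPM in the 4 WT mice was 35634, 41878, 43249 and 26039, against 20950, 23009, 27070 and 15984 in the 4 Dnm2 S619L/+ mice, so the lowest WT mouse stood below the highest mutant mouse. The log2 fold change was -0.75 (SE 0.24, edgeR quasi-likelihood test, adjusted p = 0.033). This call was lost when any of WT replicates 1, 2 and 3 or Dnm2 S619L/+ replicates 1, 2 and 4 was left out (log2 fold change between -0.63 and -0.78, adjusted p between 0.0548 and 0.105) and without scaling of the library sizes (-0.49, adjusted p = 0.0639) or without a filter on low counts (-0.75, adjusted p = 0.0617).

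Myh2, the IIa chain, fell more steeply in the same comparison. The WT mice had 2992, 1256, 1839 and 1858 normalized CPM and the Dnm2 S619L/+ mice 845, 465, 283 and 680. Every mutant mouse was below every WT mouse, with a log2 fold change of -1.80 (edgeR adjusted p = 0.00129, SE 0.32), and it passed under each of the 25 settings run. Myh1, the IIx chain, had 14246, 16092, 13649 and 13635 normalized CPM in WT and 12961, 14204, 7109 and 14020 in mutant mice. That difference of -0.25 on the log2 scale (95% interval -0.75 to 0.24) did not pass the test, and the third Dnm2 S619L/+ mouse alone lay far below the rest.

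**Figure D1:**
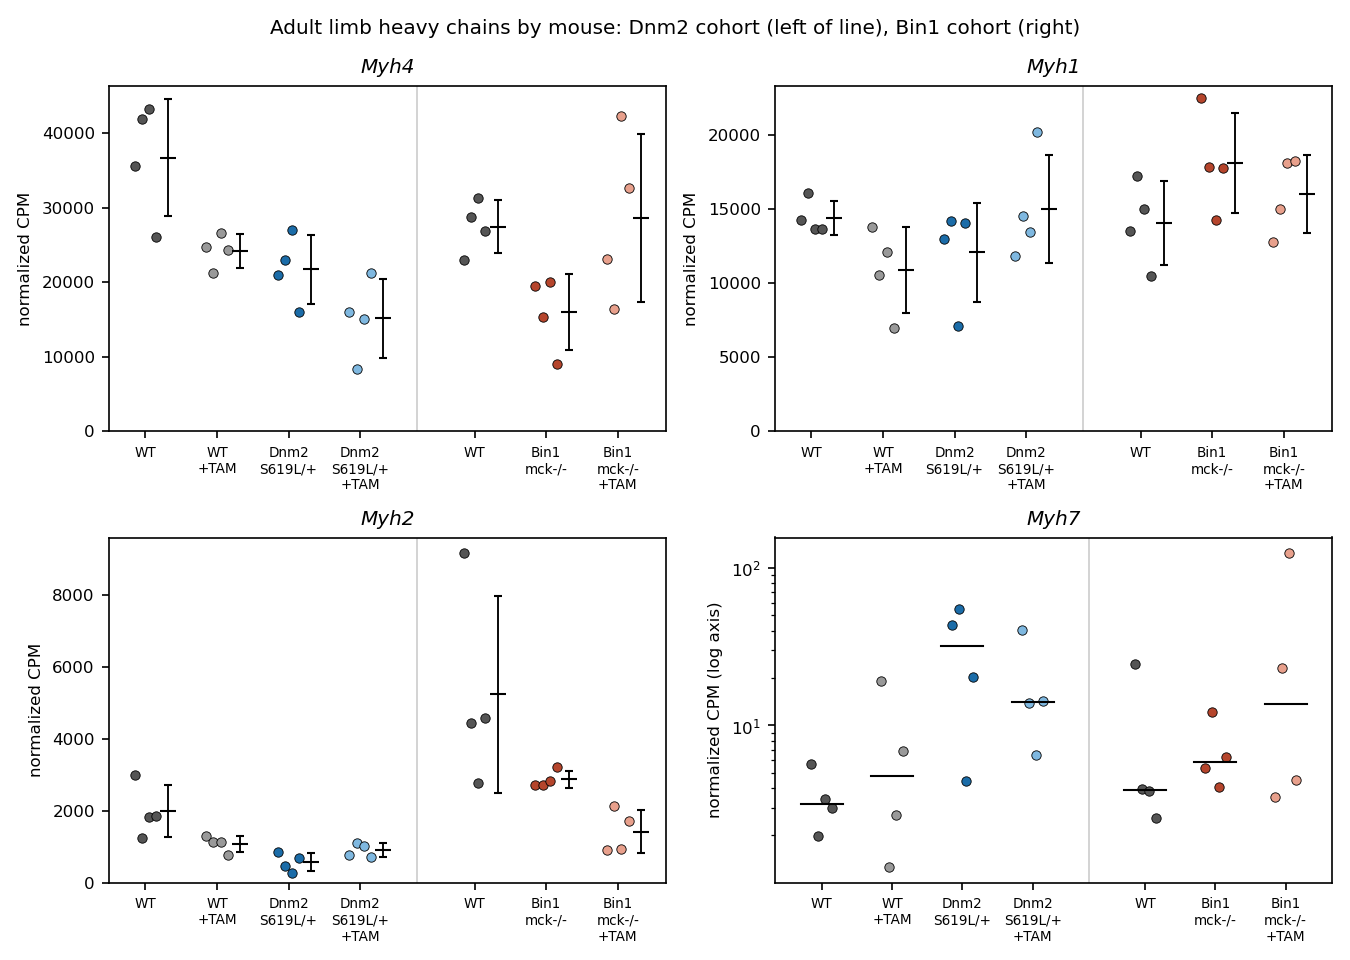
Normalized CPM of Myh4, Myh1, Myh2 and Myh7 in each mouse (points) of the 7 groups; bars give the mean and SD on linear axes, and for Myh7, on a log axis, the line gives the median. Every Dnm2 S619L/+ mouse lies below every WT mouse of its cohort for Myh2, and Myh7 varies most between mice of a group.

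Myh7, the slow chain, rose from a very low level. Its normalized CPM was 5.70, 1.98, 3.40 and 2.97 in WT mice and 43.8, 54.9, 4.44 and 20.2 in Dnm2 S619L/+ mice. Only the third mutant mouse lay within the WT range, and the log2 fold change was 3.09 (edgeR adjusted p = 0.0175, SE 0.84). Leaving out WT replicate 2 ended the call (2.91, adjusted p = 0.0589), as did testing without a filter on low counts (adjusted p = 0.0667). Heart markers summed to at most 3.52 normalized CPM in any mouse. That mouse was a Dnm2 S619L/+ one, in a group at 0.498 to 3.52 against 0.316 to 0.75 in WT. Tnni3, the only heart marker tested, differed by 1.42 (SE 0.59, edgeR adjusted p = 0.093). Nppb, the cardiac natriuretic peptide B gene, had no reads in any group. The part of these markers in the Myh7 result was not tested.

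The nonmuscle chain Myh14 was modestly higher in Dnm2 S619L/+ muscle, at 72.5, 67.0, 55.0 and 64.1 normalized CPM against 48.8, 43.2, 42.1 and 41.1 in WT. The groups did not overlap, and the log2 fold change was 0.56 (edgeR adjusted p = 0.0363, SE 0.18). The call was lost without any of WT replicates 2, 3 and 4 and mutant replicates 1, 2 and 4, with adjusted p between 0.0672 and 0.0867, and without a filter on low counts (adjusted p = 0.0584), where Myh2 alone of the 4 calls remained. In all, 4 of 10 heavy chain genes changed, 2 up and 2 down, where 21.9% of all genes tested did (12.1% higher and 9.81% lower). All 10 passed the filter on low counts. The developmental chains did not pass: Myh8 differed by 0.03 and Myh3 by 0.54 on the log2 scale (edgeR adjusted p = 0.935 and 0.138). Myh3 did pass in 1 of the 9 alternatives other than leaving out a mouse. Myh7b differed by 0.07, and the low-level Myh6 and Myh13 by -1.07 and -1.02 (adjusted p = 0.0711 and 0.166). Without Dnm2 S619L/+ replicate 1, which had the highest Myh6 and Myh13 of its group, both passed, at -1.64 (adjusted p = 0.00958) and -1.79 (adjusted p = 0.0202).

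The slow program beyond Myh7 moved in part the same way. Of 11 slow fiber partner genes, 6 were higher and 1 lower in Dnm2 S619L/+ muscle, where 12.1% of all genes tested were higher and 9.81% lower, with a median log2 fold change of 0.83 beside 0.02 over all genes. Tnni1, the slow troponin I, rose by 3.31 (SE 0.67, adjusted p = 0.00335), and Tnnt1, Tnnc1 and Myl2, slow troponin T, slow troponin C and the slow regulatory light chain, rose by 1.92, 2.11 and 2.02. Atp2a2, the slow-type calcium pump, and the light chain Myl6b rose by 0.83 and 0.60. Myl3, the slow essential light chain, went the other way, from 70.2 ± 26.5 normalized CPM in WT to 18.1 ± 8.88 (SD, n = 4), a log2 fold change of -1.95 (SE 0.39, adjusted p = 0.00312).

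None of 10 fast fiber partners passed in that comparison by edgeR, although 3 had an unadjusted p under 0.05 and their median was -0.24. Among 11 developmental and regeneration genes, 6 were higher and 1 lower, beside 12.1% and 9.81% of all genes tested. Their summed level did not rise, at 356 to 1148 normalized CPM in the mutant mice against 531 to 1940 in WT. Myog, a factor that switches on muscle differentiation, went from 4.59 ± 2.73 to 34.5 ± 11.6 normalized CPM, a log2 fold change of 2.83 (SE 0.42, adjusted p = 0.000391). Myl4, the embryonic light chain, rose by 2.31, and Ncam1, an adhesion molecule of regenerating and denervated fibers, by 2.37, while Pax7, the satellite cell factor, fell by 2.65 on the log2 scale. Markers of macrophages and leukocytes moved with them, as 3 of 6 were higher and their sum was 68.9 to 310 normalized CPM in the mutant mice against 45.1 to 74.2 in WT, and their part in the result was not tested.

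Tamoxifen in WT muscle lowered 2 of 10 heavy chain genes, Myh2 and Myh14, where 27.7% of all genes tested changed and 11.9% were lower. Myh14 went from between 41.1 and 48.8 normalized CPM to 23.6, 18.9, 21.7 and 35.4, below all untreated WT mice, a log2 fold change of -0.81 (edgeR adjusted p = 0.00426, SE 0.18) that was kept under all 25 settings. Myh2 in treated WT mice was 1302, 1134, 1124 and 769 normalized CPM, overlapping only the second untreated mouse at 1256. Its log2 fold change of -0.88 (SE 0.31, adjusted p = 0.046) was lost without any of WT replicates 1, 3 and 4, the 4 treated WT mice and treated Dnm2 S619L/+ replicates 1, 2 and 3, down to -0.61 (adjusted p = 0.155) without WT replicate 1, the mouse with the most Myh2. It was also lost without scaling of the library sizes (-0.60, adjusted p = 0.196), without a filter on low counts (adjusted p = 0.128) and with the study's filter (adjusted p = 0.0582).

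Myh4 in treated WT mice was 24762, 21218, 26588 and 24278 normalized CPM, near or below the lowest untreated mouse at 26039. Its difference of -0.60 (SE 0.24) missed the threshold at an adjusted p of 0.0696, and was -0.31 (adjusted p = 0.243) without scaling of the library sizes. It passed by DESeq2 (adjusted p = 0.0365), with only the groups compared (adjusted p = 0.019) and without WT replicate 4 or treated Dnm2 S619L/+ replicate 2 or 4 (adjusted p between 0.0271 and 0.0404). Myh1 differed by -0.41 (adjusted p = 0.2). Myh8, the perinatal chain, was 13.9, 9.93, 14.5 and 16.1 normalized CPM in treated WT mice against 11.8, 8.35, 7.35 and 10.6, with a log2 difference of 0.50 (edgeR adjusted p = 0.0645, SE 0.19). Myh8 passed by DESeq2 (adjusted p = 0.0475), with only the groups compared (adjusted p = 0.0494) and without WT replicate 1, treated WT replicate 2 or Dnm2 S619L/+ replicate 4 (adjusted p between 0.0352 and 0.0462). It also passed in both alternatives chosen after the counts were seen, no scaling of the library sizes (0.76, adjusted p = 0.0208) and the presence of Xist as a covariate (0.53, adjusted p = 0.0479).

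Genes that fold and anchor myosin also moved in treated WT muscle, with 5 of 14 lower and none higher, beside 11.9% of all genes tested that were lower and 27.7% called in either direction. Unc45b, the muscle chaperone that folds myosin heads, went from 310 ± 10.3 to 201 ± 32.1 normalized CPM, a log2 fold change of -0.63 (SE 0.15, adjusted p = 0.00557), and the ring-finger genes Trim54 and Trim55 fell by 0.54 and 0.42 on the log2 scale. Myom1, a protein of the M-band that links thick filaments, and the chaperone Hsp90ab1 fell by 0.32 and 0.31. Among fast partners Tnnc2, fast troponin C, was the single gene called, at -0.49, beside a list median of -0.42 and an all-gene median of -0.04. The 6 general fiber markers had a median of -0.40, with 5 at an unadjusted p under 0.05 by edgeR and 0 called. They summed to 49262 to 64197 normalized CPM against 68703 to 75396 in untreated WT. The part of this general fall in the myosin-related results was not tested. Bone markers rose in 7 of 8 tested genes and their sum went from 30.8 to 58.3 normalized CPM to between 316 and 963, all 6 cartilage and tendon markers and 5 of 6 macrophage markers were higher, and their part in the results for tamoxifen in WT was not tested.

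In Dnm2 S619L/+ muscle tamoxifen raised 1 of 10 heavy chains, Myh8, where 8.27% of all genes tested changed and 5.22% were higher. The treated mice had 22.5, 21, 17.4 and 15.9 normalized CPM of Myh8 against 9.74, 7.54, 8.96 and 12.9 in untreated mutants, without overlap. The log2 fold change was 0.97 (edgeR adjusted p = 0.00828, SE 0.19), it passed with each mouse left out in turn, and it was 1.01 (adjusted p = 0.0656) when only these 2 groups entered the fit. With Xist as a covariate it was 0.88 (adjusted p = 0.0312), all treated Dnm2 S619L/+ mice and 2 of 4 untreated ones having Xist. Bone markers were higher here too in 7 of 8 genes, summing to 49.2 to 572 normalized CPM against 14 to 20.3, and their part in the Myh8 result was not tested.

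The adult chains did not pass in that comparison. Myh4 in treated Dnm2 S619L/+ mice was 15962, 8347, 15006 and 21232 normalized CPM, and differed from untreated mutants by -0.52 (edgeR adjusted p = 0.177, SE 0.24). Without treated replicate 4 this became -0.73 (adjusted p = 0.0412). Myh2 was 758, 1111, 1028 and 718 normalized CPM, a difference of 0.67 (SE 0.31, adjusted p = 0.187), so its estimate was positive in mutants and negative in WT. The test of that contrast itself, genotype by tamoxifen, gave 1.54 for Myh2 (SE 0.44, unadjusted p = 0.00286 by edgeR, adjusted p = 0.164, range 0.0234 to 0.361 over the alternatives). It called 0 of 10 heavy chains by edgeR where 0.259% of all genes tested were called, with 2 at an unadjusted p under 0.05 and 1 by DESeq2, which was Myh2. With Xist as a covariate, the tamoxifen estimates in mutants were -0.33 for Myh4 and 0.41 for Myh2 (edgeR adjusted p = 0.476 and 0.387). The genotype by tamoxifen estimate for Myh2 was then 1.25 (edgeR adjusted p = 0.0801). Of the slow partners only Myl3 changed, with a log2 fold change of 1.57 (SE 0.39, adjusted p = 0.0238) in treated mutants.

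Set against untreated WT mice, treated Dnm2 S619L/+ muscle kept low Myh4 and Myh2. The comparison shares its WT mice with those above. Here 5 of 10 heavy chains passed, 3 higher and 2 lower, where 28.9% of all genes tested did (15.8% higher and 13.1% lower). Myh4 differed by -1.28 (edgeR adjusted p = 0.00147, SE 0.24) with no overlap between groups. Myh2 differed by -1.14 (adjusted p = 0.0135), and by -0.78 (adjusted p = 0.0776) without scaling of the library sizes. Myh8 was higher by 0.99 (SE 0.19, adjusted p = 0.0018). Myh7 was higher by 2.38 (adjusted p = 0.0411) and Myh3 by 0.78 (adjusted p = 0.0326), calls that were lost with Xist as a covariate (2.14 and 0.51, adjusted p = 0.103 and 0.0888) and with single mice left out: Myh7 without any of WT replicates 2, 3 and 4, treated WT replicate 4, untreated mutant replicate 4 and treated mutant replicates 1, 2 and 4 (lowest at 1.68, adjusted p = 0.153, without treated replicate 1), and Myh3 without any of WT replicates 2, 3 and 4 and treated mutant replicate 1 (lowest at 0.59, adjusted p = 0.12). Of 10 fast partners 7 were lower than in untreated WT, among them Actn3, the fast fiber alpha-actinin, by 0.79, and Pvalb, the calcium buffer parvalbumin, by 0.88 on the log2 scale. Bone markers were higher in 7 of 8 tested genes, and cartilage and tendon markers and macrophage markers in 5 of 6 each. Of the 6 general fiber markers 2, Ttn and Neb, were lower. The part of these markers in the results of this comparison was not tested.

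**Figure D2:**
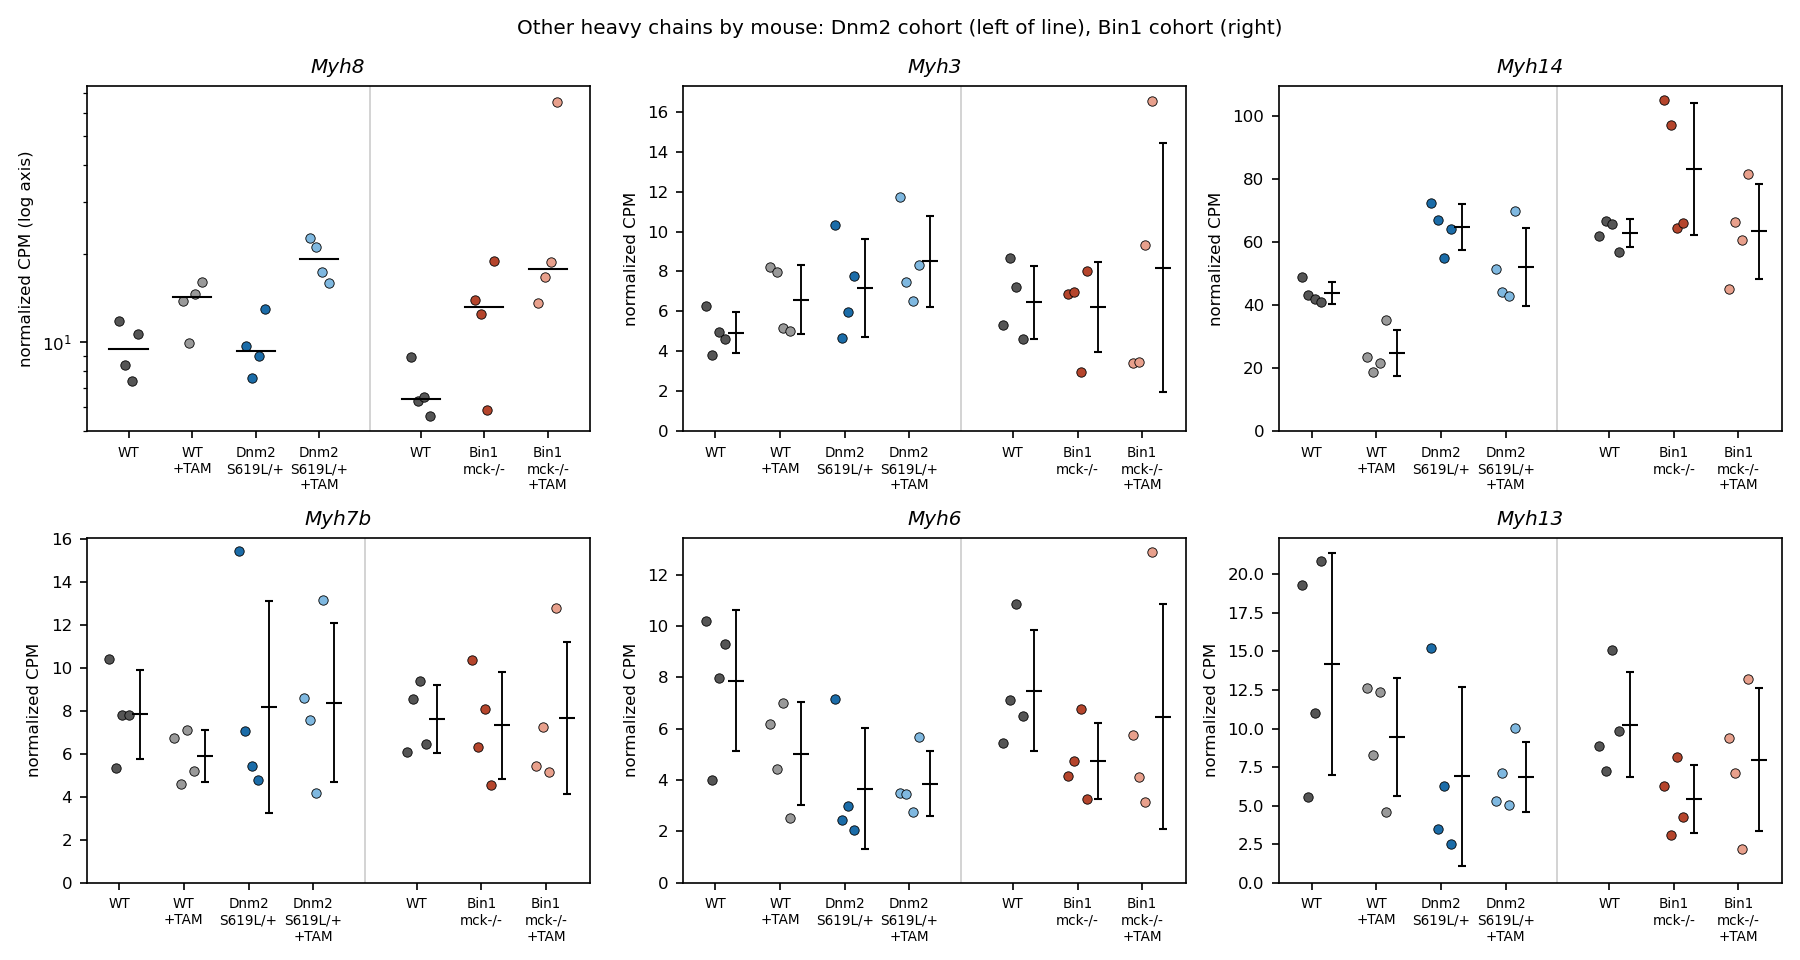
Normalized CPM of Myh8 (log axis), Myh3, Myh14, Myh7b, Myh6 and Myh13 in each mouse (points) of the 7 groups, with mean and SD on linear axes and, for Myh8, a line at the median. Treated Dnm2 S619L/+ mice lie above untreated ones for Myh8, and treated WT mice lie below WT for Myh14.

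The rare members stayed near the bottom in every group. Myh3, the embryonic chain, was 6.29, 3.82, 4.98 and 4.62 normalized CPM in WT, 10.3, 4.66, 5.98 and 7.80 in Dnm2 S619L/+ and 11.7, 7.49, 6.5 and 8.33 in treated Dnm2 S619L/+ mice, so treated mutants lay above all WT mice. In treated WT mice it was between 5.00 and 8.24, and in the Bin1 cohort between 2.94 and 16.6 with overlapping groups. Myh7b was between 4.17 and 15.5 over all 28 mice, Myh6 between 2.06 and 12.9 and Myh13 between 2.21 and 20.9, with 51 to 1903 reads a mouse behind each value of the 3. With the model of this report and all mice included, none of the 3 passed the edgeR test in any comparison. Myh6 in treated Dnm2 S619L/+ against untreated WT muscle (-1.02, adjusted p = 0.0719) passed by DESeq2 (adjusted p = 0.0373), with only the groups compared (adjusted p = 0.0426), with Xist as a covariate (-1.24, adjusted p = 0.0413) and without WT replicate 2, untreated mutant replicate 1 or treated mutant replicate 4 (adjusted p between 0.0326 and 0.0465).

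In the Bin1 cohort no adult chain passed the test between Bin1 mck-/- and WT muscle. Myh4 was 23020, 28706, 31370 and 26841 normalized CPM in WT and 19542, 15362, 20082 and 9082 in Bin1 mck-/- mice, with no overlap. The log2 difference of -0.78 (SE 0.28) had an unadjusted p of 0.0149 by edgeR and an adjusted p of 0.138. Myh4 passed by DESeq2 and in a fit of only the groups compared (the lower adjusted p of these was 0.0389). Myh2 was 9170, 4452, 2778 and 4584 in WT and 2724, 2716, 2838 and 3225 in Bin1 mck-/- mice, a difference of -0.87 (SE 0.35, adjusted p = 0.188) in which the third WT mouse lay within the mutant range. Myh1 was 13506, 17242, 14987 and 10447 in WT and 22518, 17857, 14250 and 17764 in mutants, a difference of 0.37 (adjusted p = 0.29).

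The edgeR test called 0 of 10 heavy chains in Bin1 mck-/- against WT muscle, where 2.61% of all genes tested were called. Of the members, 3 (Myh4, Myh2 and Myh14) had an unadjusted p under 0.05, and DESeq2 called 1. Myh7 was 24.5, 3.93, 3.84 and 2.59 normalized CPM in WT and 5.39, 12.2, 4.05 and 6.34 in Bin1 mck-/- mice, the first WT mouse standing far above the rest, and differed by -0.33 (SE 1.17). Myh14 was 61.9, 66.6, 65.8 and 56.9 in WT and 105, 97.2, 64.4 and 65.9 in mutants, with overlap. Myh8 was between 5.63 and 8.89 in WT and between 5.89 and 18.9 in mutants, a difference of 0.90 (SE 0.52, adjusted p = 0.375). The absence of a call does not show that these genes were alike, since the 95% interval of the Myh4 difference ran from -1.39 to -0.17. Around the heavy chains, 4 of 10 fast partners were lower: Actn3 by 1.05, Pvalb by 1.12, the calcium-binding Casq1 by 0.87 and the fast myosin-binding protein Mybpc2 by 0.97 on the log2 scale (adjusted p between 0.0365 and 0.0498). Myl3 was lower by 1.60 (adjusted p = 0.0119). Among developmental and regeneration genes, 2 of 10 tested were higher (Myog by 2.26, Ncam1 by 1.97) and Pax7 was lower by 1.42 on the log2 scale. Macrophage markers were higher in 4 of 6 genes, summing to 112 to 220 normalized CPM against 34.3 to 54.8 in WT. Adipocyte markers were higher in 2 of 4 tested genes (Cidec by 3.54, Plin1 by 3.34), summing to 205 to 363 against 242 to 270. The part of these markers in the heavy chain values was not tested.

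Tamoxifen in Bin1 mck-/- muscle gave values of Myh4 of 23190, 16367, 42258 and 32595 normalized CPM, with the second treated mouse inside the untreated range. The difference was 0.84 (SE 0.28, unadjusted p = 0.00994, edgeR adjusted p = 0.113) and passed without that mouse (1.03, adjusted p = 0.0254). Myh2 was 900, 2138, 943 and 1706, below every untreated mouse, a difference of -1.02 (SE 0.35, adjusted p = 0.129). Myh7 in treated mice was 3.49, 23.1, 124 and 4.5, with the third mouse far above the others, a difference of 2.47 (SE 1.21, adjusted p = 0.285). EdgeR called 0 of 10 heavy chains where 3.13% of all genes tested were called, with 3 members at an unadjusted p under 0.05 and 1 call by DESeq2. The fast partners Actn3, Pvalb and Mybpc2 were higher, by 1.05, 1.33 and 0.99 (adjusted p between 0.0233 and 0.0365), with a list median of 0.60 beside -0.000659 over all genes.

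Against untreated WT mice, which this comparison shares with the one above, treated Bin1 mck-/- muscle had less Myh2, by -1.88 on the log2 scale (edgeR adjusted p = 0.0326, SE 0.36). That was 1 of 10 heavy chains where 0.849% of all genes tested were called and 0.384% were lower. Leaving out WT replicates 5, 6 or 8, untreated replicate 1, or treated replicates 1, 3 or 4 ended the call (log2 fold change between -1.48 and -1.98, adjusted p up to 0.0829), as did no scaling of the library sizes (adjusted p = 0.0685), no filter on low counts (adjusted p = 0.079) and only the groups compared (adjusted p = 0.102). Myh8 was 13.6, 16.6, 18.8 and 65.6 normalized CPM in these treated mice and 8.89, 6.30, 6.53 and 5.63 in WT, a difference of 2.06 (SE 0.54, adjusted p = 0.117) with no overlap. The fourth treated mouse stood well above the other 3, which lay between 13.6 and 18.8.

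The cohorts were set beside each other in a model of all 28 mice, testing whether the disease and tamoxifen effects differed between them. The difference of the disease effects called 0 of 10 heavy chains by edgeR where 0.312% of all genes tested were called, with 2 at an unadjusted p under 0.05 and 0 by DESeq2. For Myh1 it was -0.63 (SE 0.30, adjusted p = 0.365) and for Myh7 3.41 (SE 1.46, adjusted p = 0.301). The tamoxifen effect in diseased muscle, Dnm2 cohort minus Bin1 cohort, was -1.34 for Myh4 (SE 0.38, adjusted p = 0.0582) and 1.72 for Myh2 (SE 0.49, adjusted p = 0.0568). It called 0 of 10 members where 1.71% of all genes tested were called, with 3 at an unadjusted p under 0.05 and 2 by DESeq2. With Xist as a covariate both had a higher adjusted p, 0.148 for Myh4 and 0.134 for Myh2. Cohort, library preparation and genotype of the disease model cannot be told apart in these differences.

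**Figure D3:**
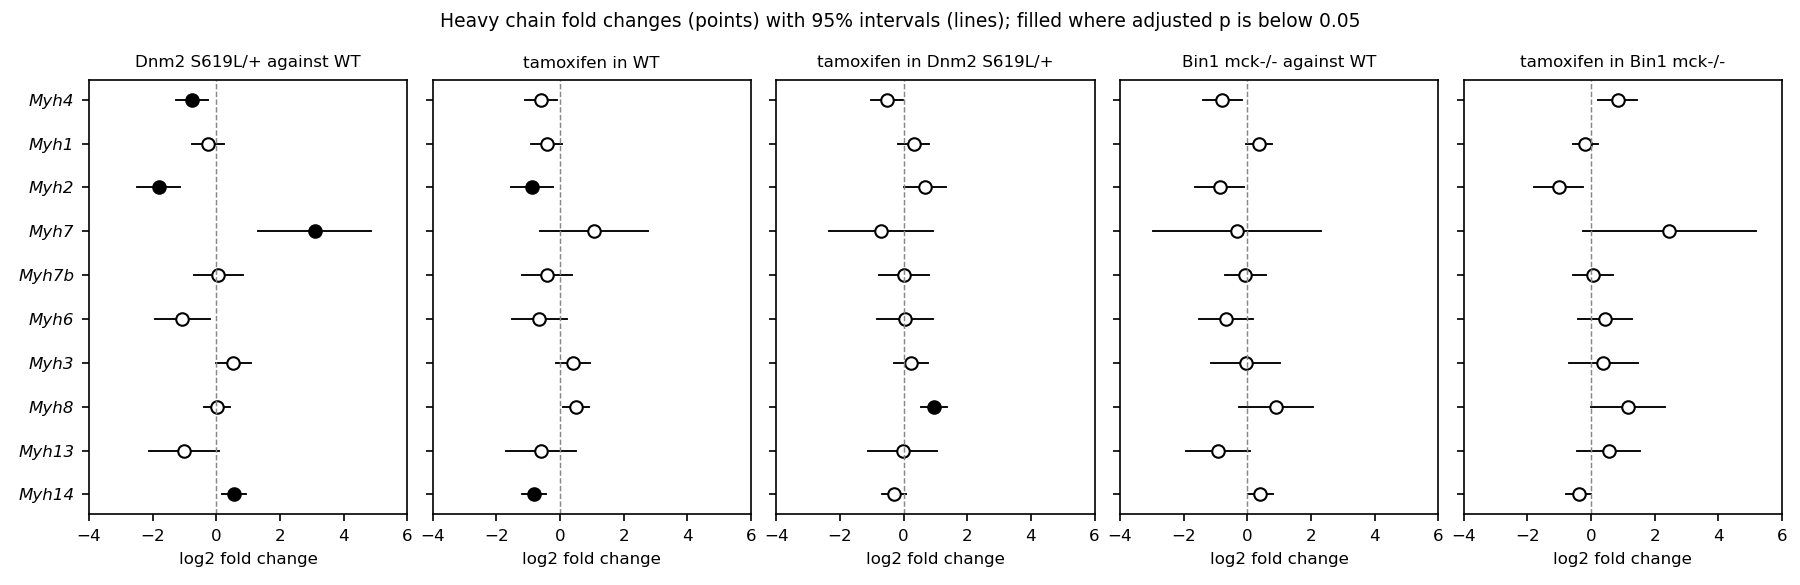
Log2 fold change of each heavy chain gene in 5 comparisons, with 95% intervals; filled points have an edgeR adjusted p under 0.05. Myh2 is below zero in every comparison except tamoxifen in Dnm2 S619L/+, and is filled only for Dnm2 S619L/+ against WT and tamoxifen in WT. Myh7 has the widest intervals.

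Shares of the family avoid library scaling, since each is a gene's part of the summed counts of the 10 members in a mouse. In WT mice of the Dnm2 cohort Myh4 held 67.3%, 70.6%, 73.5% and 62.6%, in Dnm2 S619L/+ mice 60.0%, 60.8%, 78.3% and 51.9%, and in treated mutants 55.6%, 34.7%, 50.8% and 50.3%. The ranges overlapped between the first groups (exact two-sided permutation test, p = 0.4), and treated and untreated mutants differed by -14.9 percentage points (exact permutation p = 0.0571, adjusted over 30 share tests 0.143). Myh1 held 41.2% to 60.3% in treated mutants.

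In the Bin1 cohort the share of Myh1 was 29.5%, 34.1%, 30.4% and 24.9% in WT and 50.1%, 49.5%, 38.2% and 58.9% in Bin1 mck-/- mice, that is 29.7% ± 3.8 against 49.2% ± 8.45 (SD, n = 4). All 4 mutant mice stood above all 4 WT mice, and the difference of 19.4 percentage points had the smallest exact two-sided permutation p that 4 against 4 allows, 0.0286, and an adjusted value of 0.143. Treated Bin1 mck-/- mice held 34.6%, 44.6%, 29.4% and 34.6% of Myh1 (exact permutation p = 0.0571 against untreated). Of 30 share tests 5 reached 0.0286 and none passed after adjustment. The other 4 were rare members: Myh7 and Myh3 in Dnm2 S619L/+ against WT, and Myh3 and Myh8 in treated against untreated WT. Since 0.0286 is the smallest p possible, none could pass after adjustment unless most of the 30 tests reached it.

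**Figure D4:**
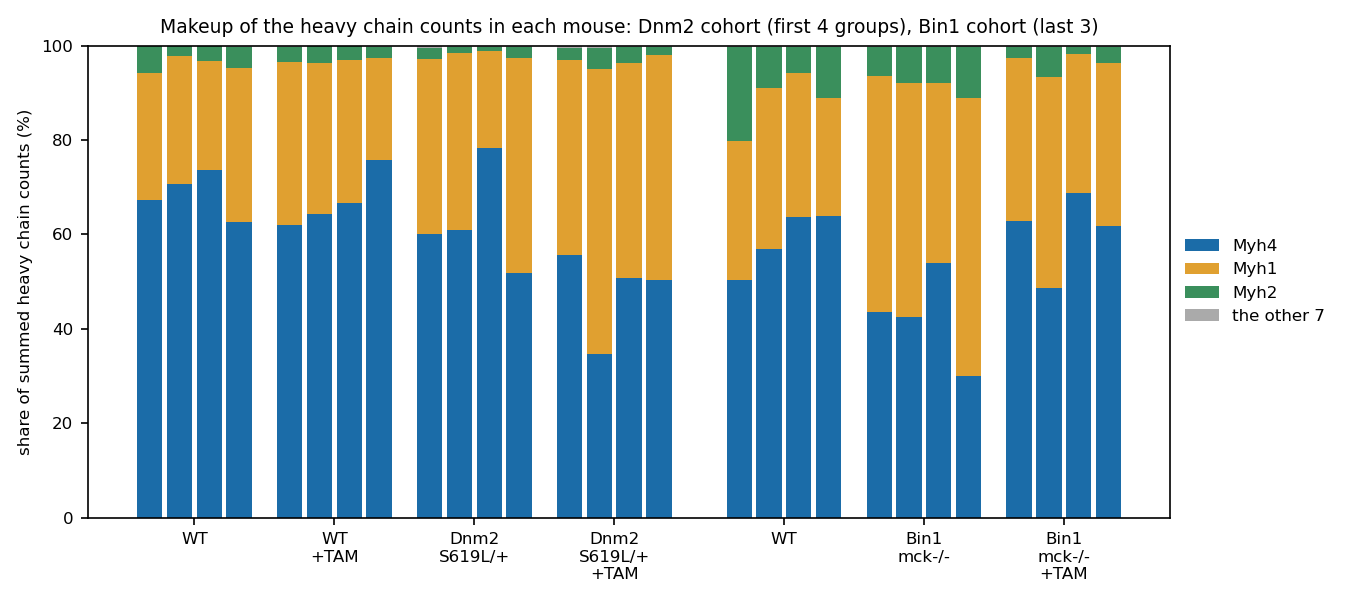
Share of the summed heavy chain counts held by Myh4, Myh1, Myh2 and the other 7 members, stacked to 100% in each of the 28 mice. In Bin1 mck-/- mice Myh1 takes 38.2% to 58.9% against 24.9% to 34.1% in WT.

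Of 29 regulators of fiber type, 3 were higher and 4 lower in Dnm2 S619L/+ against WT, beside 12.1% higher and 9.81% lower among all genes tested. Tead4, a TEA-domain factor of muscle differentiation, rose by 1.71 (SE 0.27, adjusted p = 0.000604), Nfatc2, a calcineurin target, by 1.04 and the histone deacetylase Hdac4 by 0.93. Sox6, a repressor of slow genes, fell by 0.50 on the log2 scale, Tbx15, a factor of fast fibers, by 0.42, and Ppargc1a, the coactivator of oxidative metabolism, by 1.59. In Bin1 mck-/- against WT Tead4 was the single regulator called, where 2.61% of all genes tested were, with 31.1 ± 9.13 normalized CPM against 10.4 ± 2.2, a log2 fold change of 1.57 (SE 0.26, adjusted p = 0.0119). Tamoxifen in Bin1 mck-/- muscle gave a log2 fold change of -1.70 for it (SE 0.26, adjusted p = 0.00588), with 9.58 ± 2.99 normalized CPM in treated mice.

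Of 14 genes of myosin folding, turnover and the thick filament, 2 were higher and 2 lower in Dnm2 S619L/+ against WT (12.1% and 9.81% of all genes tested), and 1 was higher in Bin1 mck-/- against WT, where 2.61% of all genes were called. Mybph, a myosin-binding protein, was 135 ± 84.7 normalized CPM in WT and 692 ± 222 in Dnm2 S619L/+ mice (log2 fold change 2.35, SE 0.50, adjusted p = 0.00476), and 179 ± 61.0 and 662 ± 251 in the Bin1 cohort (1.89, SE 0.31, adjusted p = 0.0136). With tamoxifen it was lower in Bin1 mck-/- muscle, at -1.31 (adjusted p = 0.0403). Myom3, an M-band protein, rose by 1.88 in Dnm2 S619L/+ muscle (SE 0.30, adjusted p = 0.000764), while its difference of 1.11 in Bin1 mck-/- muscle did not pass (adjusted p = 0.325). Myom1, another M-band protein, fell by 0.65 on the log2 scale in Dnm2 S619L/+ muscle (adjusted p = 0.000744) and Trim55 by 0.34 (adjusted p = 0.0406). Of the nonmuscle and smooth muscle heavy chains outside the family list, Myh11, the smooth muscle chain, fell by 1.17 on the log2 scale in Dnm2 S619L/+ muscle (adjusted p = 0.000178). Of 4 smooth muscle markers, Myh11 and Acta2 (-0.75, adjusted p = 0.0176) were lower, with a summed level of 165 to 250 normalized CPM against 278 to 324 in WT, and so were 3 of 4 endothelial markers (Pecam1, Cdh5 and Tek, list median -1.07), which summed to 134 to 405 against 313 to 624. The part of vessel cells in the Myh11 result was not tested.

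**Figure D5:**
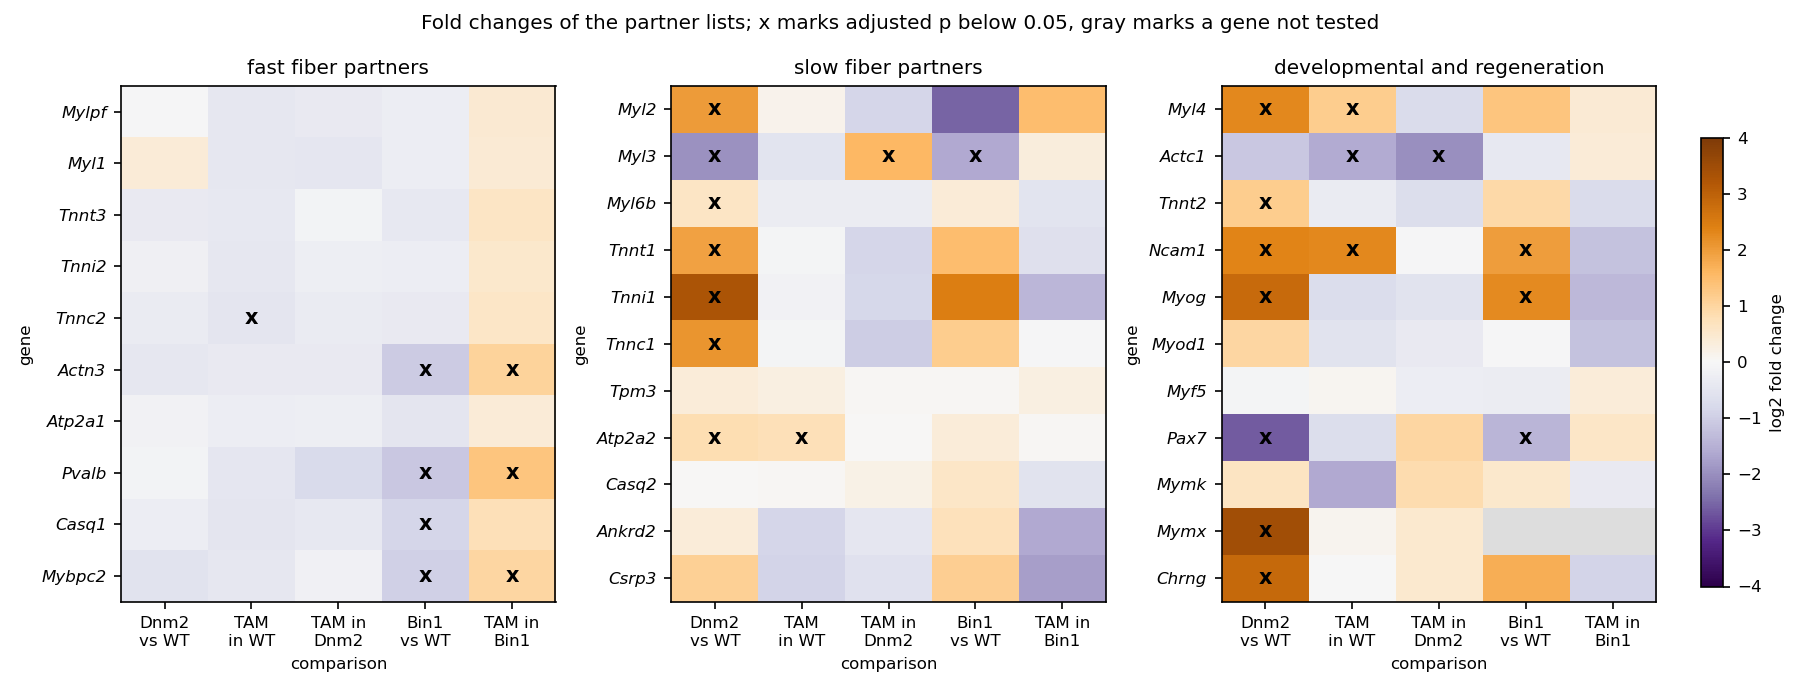
Heat maps of the log2 fold change of fast fiber partners, slow fiber partners and developmental and regeneration genes in each comparison; crosses mark an adjusted p under 0.05 and gray marks genes not tested. The 10 slow partners other than Myl3 are above zero in Dnm2 S619L/+ against WT.

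Noncoding genes inside the chromosome 11 array, chosen by position after the counts were seen, were read beside the chains. 2310065F04Rik, a lincRNA gene between Myh3 and Myh2, was 201 ± 50.2 normalized CPM in WT and 65.8 ± 28.1 in Dnm2 S619L/+ mice, a log2 fold change of -1.61 (edgeR adjusted p = 0.00898, SE 0.39). In Bin1 mck-/- against WT muscle it was 57.2 ± 32.4 against 141 ± 20.0, a difference of -1.30 (adjusted p = 0.0895). Myhas, antisense to Myh1, fell in treated WT muscle by 0.68 on the log2 scale (adjusted p = 0.0179), and 9430073C21Rik, antisense to Myh2, rose by 1.30 (adjusted p = 0.00744), from a level of 2.27 ± 1.21 normalized CPM. The strand setting of the counting is not given in the sources used here, so reads of an antisense gene and of the heavy chain it overlaps cannot be told apart.

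Genes whose log2 normalized CPM ran most like each chain were sought among 10913 genes, taking the lower Pearson r of the 16 Dnm2 cohort mice and the 12 Bin1 cohort mice as a description across mice that share groups. Closest to Myh4 were Actn3 (0.93), Capzb (0.92) and Pygm (0.92), closest to Myh2 were Pde7b (0.76), Zfp827 (0.75) and Bdh1 (0.74), and closest to Myh1 were Kif5b (0.69), Igf2r (0.66) and Ocel1 (0.64). For Myh7 they were Tpm3 (0.68), Tnnc1 (0.65) and Atp2a2 (0.63), for Myh3 Kif13b (0.72), Peg3 (0.70) and Acrbp (0.66), and for Myh8 Ccnl2 (0.80), BC067074 (0.73) and Atrnl1 (0.71). Between members, Myh6 and Myh13 ran most alike, with r of 0.96 over the 16 mice and 0.82 over the 12.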

How the data were processed

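Libraries were made by a stranded poly(A) protocol from tibialis anterior RNA, with 350 ng and 8 min of fragmentation in the Bin1 cohort and 300 ng and 2 min in the Dnm2 cohort. The authors deposited raw counts of reads per gene, 1 table per cohort. The submitters' processing notes name cutadapt 1.10, Bowtie 1.2.2, STAR 2.5.3, HTSeq 0.6.1p1 and build mm39; strand and multimapping settings are not given in the sources used here. Lines naming no gene (4, in the Bin1 table, 22.0% to 30.8% of counts) were left out.

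Counts were scaled by TMM, filtered by filterByExpr and tested by edgeR 4.0.16 (robust quasi-likelihood, prior count 2, Benjamini-Hochberg over all genes tested, threshold 0.05) in R 4.3.3, with all mice of a cohort in 1 fit and all 28 mice for differences between cohorts; limma 3.58.1 was loaded with it. Intervals are 95%. Shares were compared by exact permutation over mice. Alternatives were DESeq2 1.42.0, other scaling and filters, only the groups compared, a replicate block and each mouse left out, and 2 added after the counts were seen (no TMM, Xist). The scripts were tested on simulated data. All 10 members were named, with the few genes of each partner list that had the smallest p and, further down the slow list, the called genes Tnnc1 and Myl6b. The members and lists were chosen with earlier results of these data known. Nothing states that libraries came from separate litters, and p-values measure only the spread between these samples. Motifs and names used GRCm38 tables.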

Additional observations from a re-analysis of the deposited data

Results flagged for a closer look

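A sample far from the others of its group was found in 3 of 70 combinations of a member and a group, each of 4 mice, where chance gives about 1 in 20. Myh7 stood at 24.5 normalized CPM in WT replicate 5 of the Bin1 cohort, against 3.93 in the next mouse, a gap of 0.939 of the group's range. Myh7 stood at 124 in treated Bin1 mck-/- replicate 3, against 23.1 in the next, a gap of 0.838 of the range. Myh8 stood at 65.6 in treated Bin1 mck-/- replicate 4, against 18.8 in the next, a gap of 0.9 of the range. All 3 were the highest mouse of their group.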

How the results depend on the processing

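Counts here are heavy chain genes called. In Dnm2 S619L/+ against WT (4) it was 1 without a filter on low counts, up to 5 in the other settings, and 1 to 4 with a mouse left out. For tamoxifen in WT (2) it was 4 by DESeq2 and in a fit of only the groups compared, and 1 without a filter, with the study's filter and with a replicate block (leaving out a mouse, 1 to 3). For tamoxifen in Dnm2 S619L/+ (1) it was 0 with only the groups compared (1 to 2), and treated mutants against untreated WT (5) gave 3 to 6. The genotype by tamoxifen contrast (0) gave 1 by DESeq2 and 0 with a mouse left out. In the Bin1 cohort, disease against WT (0) gave 1 by DESeq2 and with only the groups compared (leaving out, 0); tamoxifen (0) gave 1 by DESeq2 (0 to 1); and treated against untreated WT (1) gave 2 by DESeq2 and 0 without TMM, without a filter and with only the groups compared (0 to 1). The tamoxifen difference between cohorts (0) gave 2 by DESeq2 and with the study's filter (0 to 2), the disease difference 0 throughout. Past the share test stood 0 to 3 genes (of 2) in Dnm2 S619L/+ against WT, 0 to 2 (of 2) for tamoxifen in WT, 0 to 2 (of 0) in Dnm2 S619L/+, 0 to 3 (of 1) in Bin1 mck-/- against WT and 0 to 1 (of 0) for tamoxifen in it. The causes were not tested beyond the fewer mice of each left-out fit. No heavy chain fold change that passed the test in any setting changed sign. With Xist, estimates that passed in neither fit did: Myh3, Myh7b and Myh6 for tamoxifen in Dnm2 S619L/+, and Myh1 and Myh7b in treated Dnm2 S619L/+ against untreated WT. Over all genes, counts called were 3382 against 5275 without TMM (Dnm2 S619L/+ against WT), 1277 against 30 with only the groups compared (tamoxifen in Dnm2 S619L/+) and 515 with Xist, 388 against 1191 by DESeq2 (Bin1 mck-/- against WT), and 464 against 1223 (tamoxifen in it). Without TMM the share of called genes that were higher was 21% in place of 48.5% for tamoxifen in Bin1 mck-/-, 74.4% in place of 63.1% in Dnm2 S619L/+, and 92.1% and 84.6% in place of 46% and 61.7% for the disease and tamoxifen differences between cohorts. Same-number correlations of deviations had a median of 0.0263 over 24 pairs in the Dnm2 cohort and -0.0497 over 4 in the Bin1 cohort. Different-number pairs had medians of 0.00383 over 72 and 0.00512 over 44. In both WT and Dnm2 S619L/+ mice on placebo in the Dnm2 cohort, replicates 1 and 4 had Xist and replicates 2 and 3 lacked it. Whether replicate numbers pair mice is not settled by these values. Apart from tamoxifen in WT (2 to 1, Myh2 at -0.84, adjusted p = 0.0583), the replicate block moved no count of heavy chains called.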

Other observations

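Mir208a, a microRNA in Myh6, had no reads, and Mir6923, within Myh3, had none in any mouse. The libraries were of poly(A) RNA and both lie within heavy chain genes, so the lack of reads does not show absence. Myh10, a nonmuscle chain, was 40.1 ± 12.0 normalized CPM in Bin1 mck-/- muscle and 16.9 ± 3.87 in treated mice (SD, n = 4; log2 fold change -1.25, edgeR adjusted p = 0.0303), and Myh9, another, was 80.8 ± 13.1 in Dnm2 S619L/+ and 132 ± 21.8 in treated mice (0.70, adjusted p = 0.0185). The study had 4 mice a group, no treated WT mice in the Bin1 cohort, uneven presence of Xist in the Dnm2 cohort, and sequence shared between members.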
